A study of Mus musculus with 19 samples.

Results

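The Notch pathway genes examined here were the receptors Notch1, Notch2 and Notch3, the ligands Dll1, Dll4, Jag1 and Jag2 and the target genes Hes1, Hes5 and Hey1. They were taken as a list of names, 10 of the 26182 mouse RefSeq genes. All peaks within 2 kb of a transcription start site (TSS), in the gene body or within 50 kb of a TSS were taken from 2 replicates of SOX3 ChIP-seq, which maps where the transcription factor SOX3 sits on DNA. The 2 lists held 58351 and 38832 peaks, of which 107 and 60 lay at these genes. Chromatin came from mouse testis at postnatal day 7, and by the study's methods from seminiferous tubules pooled from several mice of C57BL/6J background. No genotype or treatment was given for these samples, the labels named 2 SOX3 antibodies for each library, and there was no control group. The tubules hold Sertoli and other cells beside germ cells, and the peak lists carry no expression values, so the tissue could not be checked against marker genes. A strong signal in few cells and a weak signal in many cells cannot be told apart in such lists.

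Notch receptors sit on the cell surface and bind Delta and Jagged ligands on a neighbouring cell, after which proteases release the intracellular part of the receptor. That fragment enters the nucleus, joins the DNA-binding protein RBPJ and a Mastermind coactivator, and switches on repressors of the Hes and Hey families. In the testis, germ cells and Sertoli cells carry different parts of the pathway, and Notch activity in Sertoli cells is known to bear on the factors that support undifferentiated spermatogonia (uSPG), the cells that the study gives as the place of SOX3 in the testis.

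The sequence just before the TSS is shown for the promoters that carried an RBPJ word, GTGGGAA on either strand, because this is the site through which the pathway acts on its own targets. The windows searched ran from 250 bases before to 50 bases after each RefSeq TSS, 11 in all since Dll1 has 2 TSSs, and sequence and positions are from RefSeq on GRCm38, the assembly of mm10. The word was found in 3 of the 11 windows, those of the 3 target genes, and in 6.13% of all 31647 promoters. With 500 bases either side of the TSS it was found in 6 of the 11 windows (all promoters, 19.9%), the further ones being those of Notch1, Notch3 and 1 of the 2 Dll1 TSSs. In Hes1 (chr16:30065107-30065356, plus strand) and Hes5 (chr4:154960673-154960922, plus strand), the 250 bases before the TSS are given with the RBPJ word in capitals. In Hey1 (chr3:8667004-8667032, minus strand) the word began 17 bases after the TSS, and only the site is given.
Hes1: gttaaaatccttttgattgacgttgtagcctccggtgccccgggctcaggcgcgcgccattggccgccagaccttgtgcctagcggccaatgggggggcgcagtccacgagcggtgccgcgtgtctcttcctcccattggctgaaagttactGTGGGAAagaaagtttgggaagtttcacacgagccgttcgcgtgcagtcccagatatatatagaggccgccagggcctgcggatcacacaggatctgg
Hes5: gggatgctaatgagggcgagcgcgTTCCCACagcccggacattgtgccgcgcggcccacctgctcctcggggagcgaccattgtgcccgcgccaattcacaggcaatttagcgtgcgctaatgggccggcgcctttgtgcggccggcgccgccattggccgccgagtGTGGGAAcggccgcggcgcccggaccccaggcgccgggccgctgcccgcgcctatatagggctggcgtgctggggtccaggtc
Hey1: aggggcgcagcGTGGGAAagggatggttg
The Hes1 word, which began 98 bases before the TSS, lay inside the promoter peak of both replicates. The Hes5 words, 226 and 83 bases before the TSS, and the Hey1 word lay inside the peak of replicate 1 and outside that of replicate 2.

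SOX proteins bind short AT-rich words, searched here as NNCAANG with A or T at every N, which makes 8 words, on both strands. None of the 11 windows held one, against 22.4% of all promoters and 11.3% of CpG-rich promoters of the same length. With 500 bases either side of the TSS, 2 of the 11 windows held a SOX word, those of Hes1 and Hes5, against 56.7% of all promoters and 40.8% of CpG-rich ones. The upstream words are given in capitals, for Hes1 (chr16:30064983-30065011, plus strand) 363 bases before the TSS and for Hes5 (chr4:154960477-154960505, plus strand) 435 bases before it.
Hes1 SOX word: tgaacttattaTACAAAGtagttatattg
Hes5 SOX word: cgctgtctgttCATTGTAaaactctcatt
The Hes1 word lay inside the peak of both replicates and the Hes5 word inside that of replicate 1. A second Hes1 word, ATCAAAG, began 476 bases after the TSS and also lay inside both peaks. Such matches describe the letters of a window and are not measured contacts. Of the words bound by the Hes and Hey proteins themselves, the N-box CACNAG was present in 6 of the 11 windows (all promoters, 42.0%), the E-box CACGTG in 0 (7.68%) and the class C word CACGNG in 9 (30.7%, and 49.3% of CpG-rich promoters). CACGNG includes CACGTG and shares CACGAG with the N-box. The Hes1 window held the most N-box words, 4, and the most class C words, 4, and both of its CACGAG sequences were counted under each.

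CpG-rich promoters were the rule among these genes. A window was called CpG-rich at an observed over expected CpG ratio of at least 0.6 and a GC share of at least 50%. This held for 10 of the 11 windows, against 41.3% of all promoters, and the ratio ran from 0.595 at Dll4 to 1.14 at Jag2. The 250 bases before the TSS are shown with CpG in capitals for Notch2 (chr3:98013288-98013537, plus strand) and Jag1 (chr2:137116521-137116770, minus strand), which had strong peaks in both replicates, and for Dll4 (chr2:119325534-119325783, plus strand), which fell just short of the ratio of 0.6. With 500 bases either side of the TSS, Dll4 passed with 0.602, and the windows of Hes1, Notch3 and 1 of the 2 Dll1 TSSs did not, which left 8 of 11.
Notch2: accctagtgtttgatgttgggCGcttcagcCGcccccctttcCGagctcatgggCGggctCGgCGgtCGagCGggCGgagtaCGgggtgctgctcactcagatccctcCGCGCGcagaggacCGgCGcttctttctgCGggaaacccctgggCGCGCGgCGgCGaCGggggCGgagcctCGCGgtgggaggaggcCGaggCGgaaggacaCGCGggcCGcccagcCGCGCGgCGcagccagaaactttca
Jag1: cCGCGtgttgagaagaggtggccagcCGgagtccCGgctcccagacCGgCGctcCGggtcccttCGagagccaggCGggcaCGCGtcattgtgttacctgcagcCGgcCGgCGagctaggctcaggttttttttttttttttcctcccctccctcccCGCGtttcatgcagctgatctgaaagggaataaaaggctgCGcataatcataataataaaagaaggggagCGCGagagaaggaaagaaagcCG
Dll4: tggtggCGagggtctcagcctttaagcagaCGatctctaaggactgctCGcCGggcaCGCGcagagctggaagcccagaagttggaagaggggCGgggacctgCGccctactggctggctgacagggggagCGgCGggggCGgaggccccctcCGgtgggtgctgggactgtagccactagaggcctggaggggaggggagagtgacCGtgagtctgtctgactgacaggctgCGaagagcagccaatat
These stretches held 34 CpGs in Notch2, 20 in Jag1 and 14 in Dll4.

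SOX3 peaks lay at the promoters of all 10 genes in replicate 1 and in replicate 2, where 62.7% and 54.7% of all RefSeq genes had one. Both replicates had one at 52.2% of all genes, at 57.9% of protein-coding genes and at 89.1% of protein-coding genes with a CpG-rich promoter, but at 27% of those without. The count is to be read against the share of CpG-rich genes, since 9 of the 10 genes had such a promoter. At 9 of the 10 genes, all except Dll4, the promoter peaks of the 2 replicates shared at least 1 base (background, 50.8% of all genes, 56.6% of protein-coding genes and 88.1% of those with a CpG-rich promoter). Peak strength was described by the q score, the authors' measure of certainty for a peak (minus 10 times the log10 of its q-value), for which the lists start at 30. When both replicates had to pass a q score of 60, 4 of the 10 genes were left, Notch1, Notch2, Jag1 and Hes1 (background, 35.2% of all genes and 66.8% of CpG-rich protein-coding genes). They made up 4 of the 9 genes with a CpG-rich promoter (44.4%). The design has no second condition and 2 replicates, so these counts were not tested.

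**Figure D1:**
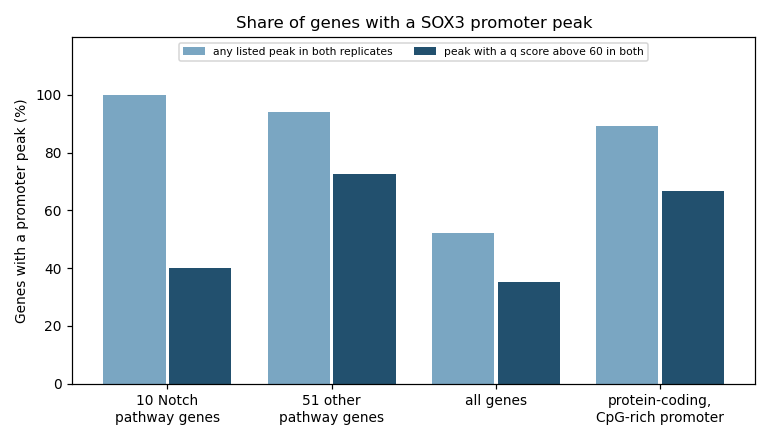
Bars give the percentage of genes with a promoter peak within 2 kb of a TSS in both replicates, at any listed q score (light) and at a q score above 60 (dark), for the 10 Notch pathway genes, 51 other genes of the pathway, all 26182 RefSeq genes and 10456 protein-coding genes with a CpG-rich promoter. The 10 genes stand at 100% by the first rule and at 40% by the second, against 89.1% and 66.8% for the CpG-rich genes.

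Among the receptors, Notch1 and Notch2 carried strong promoter peaks in both replicates and Notch3 a weak one. At Notch2, the strongest peak of the set covered the TSS at chr3:98012891-98014623 with a q score of 519.6 and a log2 ratio of ChIP over input of 5.12 in replicate 1. In replicate 2 it lay at chr3:98012911-98014452 with a q score of 139 and a log2 ratio of 2.74. Each q score was placed among the strongest promoter peaks of all genes with one, and Notch2 stood at percentile 95.8 and 82.6. The peak sat on exon 1 and no other RefSeq TSS lay within 50 kb.

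Notch1, a receptor whose activating mutations drive T cell leukaemia, had the peak chr2:26501526-26504927 in replicate 1 (q score 301, log2 ratio 3.93) and chr2:26501481-26504321 in replicate 2 (q score 118, log2 ratio 2.71). These peaks were 3402 and 2841 bp wide, against a median of 1641 and 1329 bp for the strongest promoter peaks of all genes, and stood at percentile 78.6 and 73.9. They began upstream of the TSS, ran into intron 1 and also covered the TSS of the predicted gene Gm35978, so the peak cannot be given to one of these genes. Notch3, a receptor of vessel wall cells in other tissues, had a q score of 69.9 in replicate 1 (chr17:32165458-32167458, percentile 23.9) and 39.2 in replicate 2 (chr17:32167241-32167913, percentile 12.8). The replicate 1 peak covered the TSS, while that of replicate 2 ended 351 bp before it, and they shared 218 bp.

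Among the ligands, Jag1 stood apart from the other three. Its TSS was covered by a peak of q score 372 and log2 ratio 4.54 in replicate 1 (chr2:137116161-137117896) and of q score 145 and log2 ratio 3.05 in replicate 2 (chr2:137116085-137117958), at percentile 87.1 and 84.6. A second promoter peak in intron 2 was found in both replicates, with q scores of 76.7 and 56.3. No other RefSeq TSS lay within 50 kb of the Jag1 TSS. Jag2 had a q score of 149 in replicate 1 (chr12:112927802-112930791, log2 ratio 4.59, percentile 45.9) and 53.2 in replicate 2 (chr12:112928293-112929781, log2 ratio 3.15, percentile 29.0), both over the TSS.

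The Delta ligands had low scores. Dll1 had a q score of 90.2 in replicate 1 (chr17:15374547-15376437, log2 ratio 4.45, percentile 30.04) and 37.6 in replicate 2 (chr17:15375113-15375706, log2 ratio 2.34, percentile 11.3). The replicate 1 peak covered the downstream one of its 2 TSSs, and the narrower replicate 2 peak lay 117 bp inside exon 1. A TSS that GENCODE gives to A930024N18Rik lay inside the replicate 1 peak and 113 bp from the replicate 2 peak. Dll4, known for its part in vessel sprouting, was the single gene with a higher q score in replicate 2, 53.2 (chr2:119324730-119325527, log2 ratio 3.15, percentile 29.0) against 38.6 (chr2:119325621-119326530, log2 ratio 2.45, percentile 7.58). The replicate 1 peak covered the TSS and exon 1 while that of replicate 2 ended 257 bp before the TSS, with 93 bp between them, so the replicates did not mark the same bases. The TSS of the predicted gene Gm14207 lay inside the replicate 1 peak, and a GENCODE TSS of Gm14207 lay 16 bp from the replicate 2 peak.

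**Figure D2:**
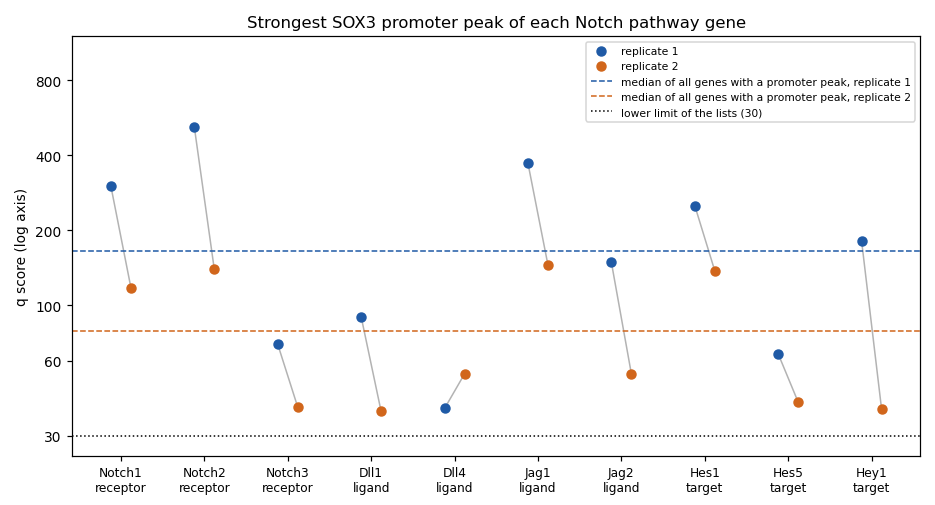
Points give the q score (log axis) of the strongest promoter peak of each gene in replicate 1 (blue) and replicate 2 (orange), with the median over all genes with a promoter peak as dashed lines and the lower limit of the lists as a dotted line. Notch1, Notch2, Jag1 and Hes1 lie above the median of their list in both replicates, and Notch3, Dll1, Dll4, Jag2 and Hes5 lie below it in both.

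Of the target genes, Hes1 carried the widest peak. It reached over the whole 2.44-kb gene and beyond at chr16:30062926-30069111 in replicate 1 (6186 bp, q score 251, log2 ratio 3.95) and over most of it at chr16:30062950-30067578 in replicate 2 (4629 bp, q score 138, log2 ratio 3.18). These widths exceeded those of 97.8% and 99.2% of the strongest promoter peaks of all genes, and the q scores stood at percentile 70.0 and 82.0. Hes5, an effector best known from neural progenitors, had q scores of 64.0 (chr4:154960472-154961995, percentile 21.8) and 41.0 (chr4:154961081-154962202, percentile 15.8). The replicate 2 peak began 158 bp after the Hes5 TSS and lay 1921 bp from the TSS of Pank4, a neighbour with a stronger peak of its own. The Hes5 peaks of both replicates also covered a TSS that GENCODE gives to Gm20421.

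Hey1 had the largest ratio of q scores between the replicates, 4.73. Its q score was 181 in replicate 1 (chr3:8666780-8668222, log2 ratio 4.02, percentile 54.3) and 38.3 in replicate 2 (chr3:8667163-8668044, log2 ratio 1.67, percentile 12.1). The first peak covered the TSS and the second ended 125 bp before it. A weaker peak in exon 5 lay 1813 bp from the TSS in replicate 1 (q score 36.9) and 2053 bp in replicate 2 (q score 34.4), so that the limit of 2 kb made it a promoter peak in one replicate and a gene body peak in the other. Pairs just outside the limit were found upstream of Hes5, 2020 and 2152 bp from the TSS (q scores 47.8 and 37.6), and of Notch1, 2498 and 3799 bp from it (q scores 69.8 and 32.8).

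**Figure D3:**
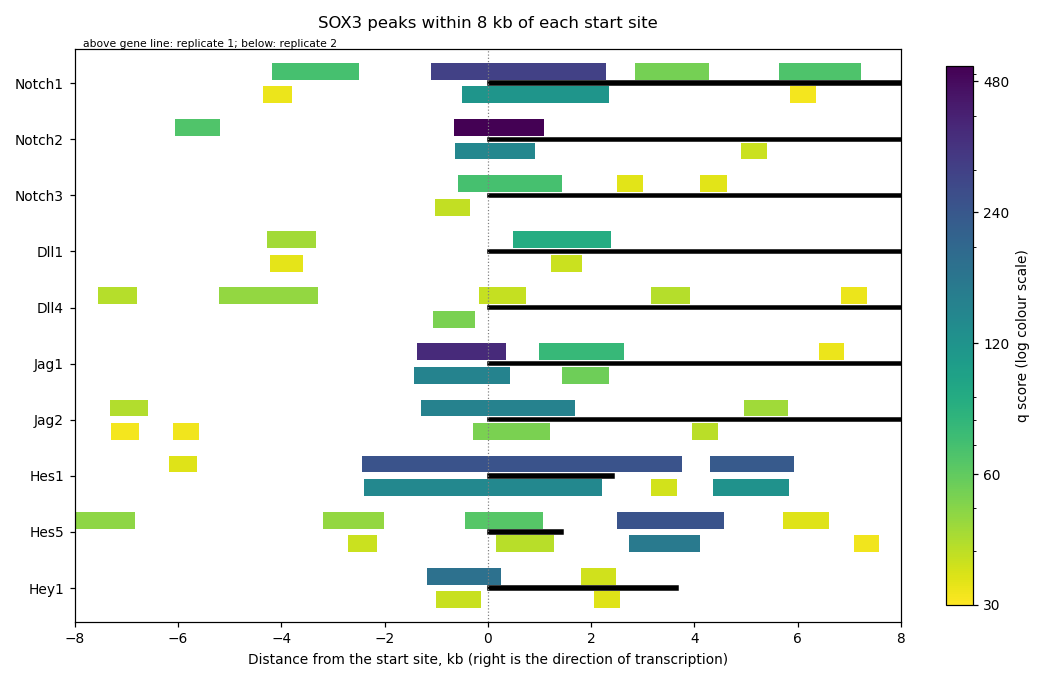
Boxes show each SOX3 peak within 8 kb of the TSS of each gene, in kb along the direction of transcription, for replicate 1 above and replicate 2 below the black gene line (for Dll1 from the upstream TSS), coloured by q score on a log scale. The widest boxes are those of Hes1, 6186 and 4629 bp, and the Dll4 boxes of the 2 replicates do not share a base.

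The 4 genes that passed a q score of 60 in both lists also had the highest mean percentiles. The mean percentile over the replicates was 89.2 ± 9.32 for Notch2, 85.9 ± 1.81 for Jag1, 76.2 ± 3.30 for Notch1 and 76.0 ± 8.47 for Hes1 (SD, n = 2). Notch1 and Hes1 differed by less than the SD of either, and Jag1 and Notch1 by more than the SD of either. Notch2 and Jag1 differed by less than the SD of Notch2 but by more than that of Jag1. The other 6 followed with 37.5 ± 11.97 for Jag2, 33.2 ± 29.9 for Hey1, 20.7 ± 13.2 for Dll1, 18.8 ± 4.27 for Hes5, 18.3 ± 7.83 for Notch3 and 18.3 ± 15.2 for Dll4 (SD, n = 2). The lowest of the 4 stood at 70.0 in replicate 1 and 73.9 in replicate 2, and the highest of the 6 at 54.3 and 29.0. The 4 were set apart on these same values, and in replicate 1 the step between them and the 6 was no larger than that from Jag2 at 45.9 to Dll1 at 30.04. The median q score of the 10 genes was 165 in replicate 1 and 53.2 in replicate 2. Over all genes with a promoter peak it was 165 and 78.8, and over CpG-rich protein-coding genes 209.6 and 90.5.

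Notch1, Notch2, Jag1 and Hes1 had the highest q scores in both replicates, but below them the order changed. Among the rest, Hey1 was highest in replicate 1 (181) and second lowest in replicate 2 (38.3). Dll4 was lowest in replicate 1 (38.6) and level with Jag2 as highest in replicate 2 (53.2). The order by log2 ratio was not alike in the replicates. Across the 10 genes Spearman's rho between the replicates was 0.67 for the q score and 0.04 for the log2 ratio, a description over genes that share 2 libraries. The median log2 ratio of the 10 genes was 3.99 and 2.80, against 3.67 and 2.72 for all genes with a promoter peak. Scores of the 2 lists are not on one scale, and the libraries' depth is unknown from the lists.

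The rest of the pathway had stronger promoter peaks on median than these 10 genes. A list of 51 other pathway genes, written down from textbook roles, had a promoter peak in 51 genes in replicate 1 and in 48 in replicate 2. Of all RefSeq genes 62.7% and 54.7% had one. The 48 had overlapping peaks (all genes, 50.8%). Both replicates had a promoter peak at 35 of the 37 genes with a CpG-rich promoter (94.6%), near the 89.1% of CpG-rich protein-coding genes. Both replicates passed a q score of 60 at 37 of the 51 (72.5%), and at 29 of the 37 with a CpG-rich promoter (78.4%), against the 66.8% of CpG-rich protein-coding genes given above. The median percentile was 64.9 and 54.6. All 9 proteases, which cut the receptor at and inside the membrane, passed 60 in both replicates, as did 6 of 7 nuclear effectors, 6 of 7 corepressors, 4 of 5 glycosyltransferases and 10 of 13 genes of ubiquitination and endocytosis. Of the further genes listed as targets, which are Nrarp and other Hes and Hey genes, 2 of 7 did. Notch4 and the further ligands Dll3 and Dlk1 did not, with mean percentiles between 20.3 and 22.7. A q score above 60 in both replicates was reached by 35.2% of all genes. The classes hold few genes, and differences between them were not tested.

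The 3 genes of the 51 with the highest mean percentile code for nuclear proteins, the third of them, Maml1, by a narrow margin (93.8 for both Maml1 and Nrarp). Kdm5a, a histone demethylase that acts with RBPJ as a corepressor, had q scores of 843 and 349, Ncor1, a corepressor scaffold, 598 and 258, and Maml1, a Mastermind coactivator, 459 and 198. Every pathway gene had a promoter peak in at least 1 replicate. The genes with one in replicate 1 alone were 3 further members of the target families, Hes2 (q score 44.8), Hes3 (31.1) and Hey2 (92.1), which were named after their values were seen. Of the 7 further genes listed as targets, 4 had a promoter peak in both replicates.

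**Figure D4:**
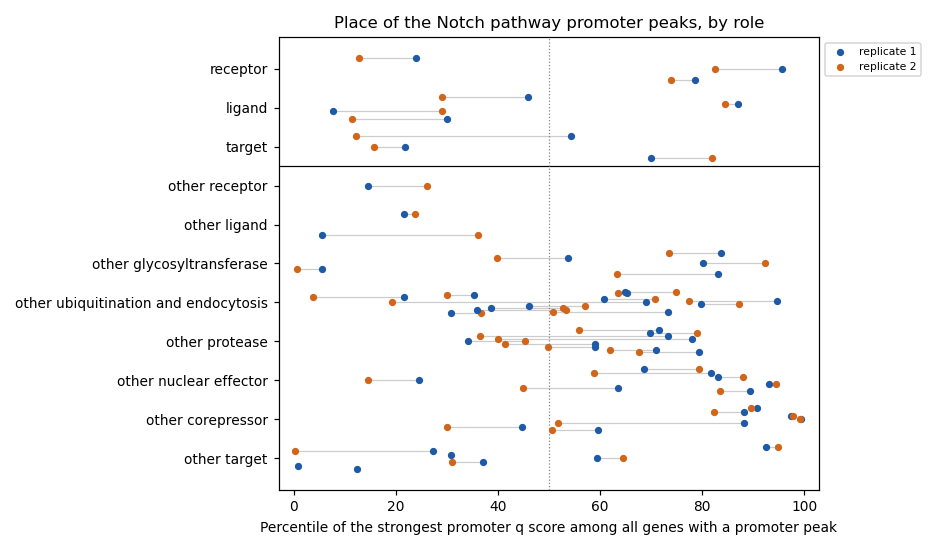
Points give the percentile of the strongest promoter q score of each gene among all genes with a promoter peak, in replicate 1 (blue) and replicate 2 (orange), joined by a line, with the 10 genes above and the 51 other pathway genes below the horizontal line. The proteases lie between 34.1 and 79.4 and the receptors and ligands are spread over both ends of the axis.

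Peaks inside the genes were mostly weak, and few of those of replicate 1 overlapped a peak of replicate 2. Gene body peaks, more than 2 kb from a TSS of the gene, were present in both replicates at 4 of the 10 genes, Notch1, Notch2, Notch3 and Jag2, against 21.1% of all genes, 44.8% of genes of 40 kb or more and 13.9% of shorter ones. In replicate 1 there were 6 such genes and in replicate 2 there were 5 (background, 34.1% and 26.8%), and the gene body peaks of the replicates overlapped at Notch1 and Notch2 (background, 12%). The 3 receptor genes are over 40 kb long. Notch1 had 8 and 5 gene body peaks in 45.9 kb, which is 1.74 and 1.09 per 10 kb, a density above that of 98.4% and 98.6% of genes of 40 kb or more. In each replicate 3 of them overlapped a gene body peak of the other, of which the strongest lay in intron 2 at chr2:26496595-26498178 (q score 66.5) in replicate 1 and chr2:26497464-26497970 (q score 31.5) in replicate 2. The next was in exon 27 at chr2:26466333-26466828 (q score 35.7) in replicate 1 and in the adjoining intron at chr2:26466140-26466643 (q score 31.2) in replicate 2.

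Notch2 had 11 gene body peaks in replicate 1 and 2 in replicate 2, and 1 of them was shared, in intron 3 at chr3:98070871-98071687 (q score 33.9) and chr3:98070952-98071618 (q score 40.03). Notch3 with 3 and 1 and Jag2 with 3 and 1 gene body peaks shared none. Over the 10 genes the 29 and 10 gene body peaks had median q scores of 36.4 and 34.6, near the lower limit of the lists. Below a q score of 60 scores take few values, 186 among 42564 peaks of replicate 1 and 281 among 29812 of replicate 2, so that unrelated weak peaks often carry the same score.

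Within 50 kb the genes had a median of 10 peaks in replicate 1 and 4.5 in replicate 2, against 4 and 3 over all genes, whose middle ranges ran from 1 to 9 and from 1 to 6. The number ran from 3 at Dll1 to 18 at Notch1 in replicate 1 and from 2 at Notch2 and Jag1 to 12 at Notch1 in replicate 2. Of the 107 and 60 peaks counted with the gene bodies, 31 (29.0%) and 32 (53.3%) overlapped a peak of the other replicate, against 34.4% and 54.0% of all peaks. Promoter peaks, which were also the stronger ones, were shared most often. Of the promoter peaks 11 of 12 and 10 of 11 were shared, of the gene body peaks 4 of 29 and 5 of 10, and of the remaining peaks 16 of 66 and 17 of 39.

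Several of the strongest of these remaining peaks lay at the TSS of a neighbour. The peak 3.5 kb downstream of the Hes5 TSS was the promoter peak of Pank4, with q scores of 251 and 162, above those of Hes5 itself. In the Dll1 window the peak at the TSS of Fam120b had q scores of 169 and 56.1. In the Jag2 window the peak at the TSS of Btbd6 had q scores of 349.6 and 130, and that at the TSS of Nudt14 had 102 and 61.1. A Jag2 window peak 22.1 kb upstream of the gene, with q scores of 180.0 and 64.8, was away from RefSeq TSSs but covered a TSS that GENCODE gives to Gm26583.

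A peak beyond the end of Hes1 was singled out after its values were seen, because it was strong in both replicates and far from any other annotated start. It lay 5.12 kb from the Hes1 TSS in replicate 1 (q score 234, log2 ratio 4.81) and 5.10 kb from it in replicate 2 (q score 121, log2 ratio 3.57). It was not isolated from the wide Hes1 promoter peak, which in replicate 1 ended at chr16:30069111, while this peak began at chr16:30069664. In replicate 2 a weaker peak lay between the 2 (chr16:30068514-30069014, q score 36.5). By q score the peak beyond Hes1 was number 154 of the 42016 replicate 1 peaks and number 131 of the 25215 replicate 2 peaks that touched no RefSeq promoter, where the median was 37.9 and 36.5. The nearest other RefSeq TSS, of 9030404E10Rik, was more than 30 kb away, and the nearest in GENCODE, of the pseudogene Gm20040, more than 21 kb. The peak was CpG-rich, with an observed over expected ratio of 0.603 and 0.622, and held 0 SOX words and 0 RBPJ words. Other shared peaks away from RefSeq TSSs were weaker, such as those 12.2 kb downstream of the Dll4 TSS (q scores 86.4 and 46.3), 25.4 kb upstream of it (61.9 and 42.1) and 17.1 kb downstream of the Hes1 TSS (55.3 and 39.5).

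**Figure D5:**
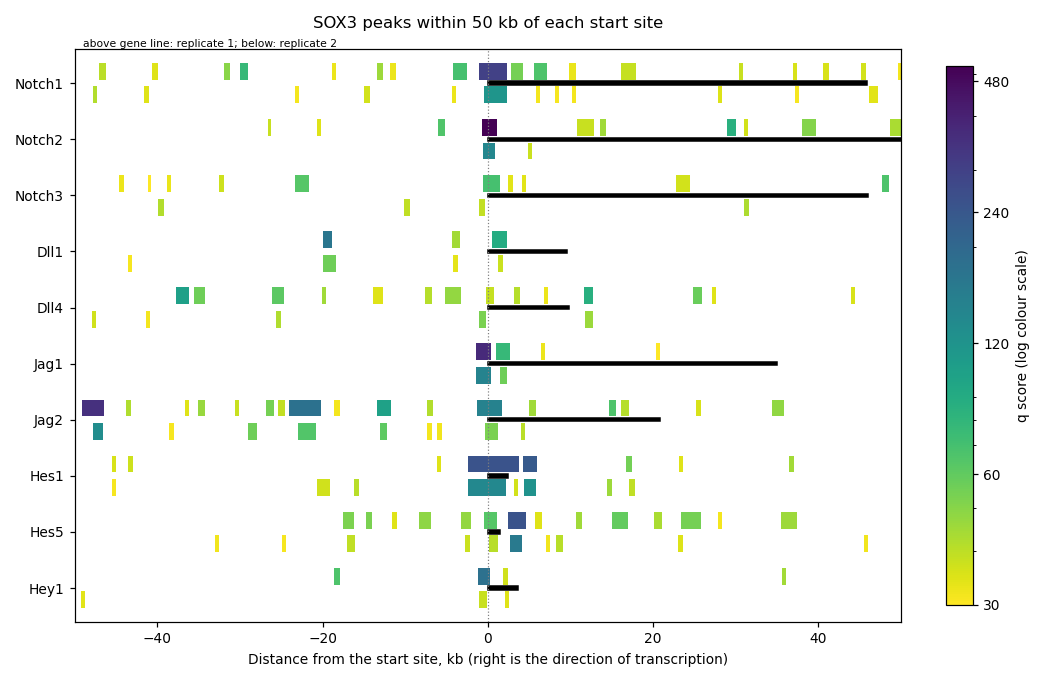
Boxes show each SOX3 peak within 50 kb of the TSS of each gene, in kb along the direction of transcription, for replicate 1 above and replicate 2 below the black gene line, coloured by q score on a log scale. Dark boxes away from the TSS mark neighbouring promoters at Dll1, Jag2 and Hes5, while that beside Hes1 at 5.12 kb lies at no annotated start of another gene, and Jag1 and Notch2 have 2 peaks each in replicate 2.

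ChIP-nexus, in which an exonuclease trims the precipitated DNA towards the protein contact, gave short SOX3 lists of 110 and 18 mouse peaks from the same tissue and age. None lay within 50 kb of one of the 10 genes, the nearest being 935 kb from Hey1 in replicate 1 and 20.7 Mb from Dll4 in replicate 2. With lists of this length, a gene without a ChIP-nexus peak says nothing of the ChIP-seq peak there.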

How the data were processed

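SOX3 ChIP-seq (2 replicates) and SOX3 ChIP-nexus (2 replicates) of postnatal day 7 testis were used. The other 15 of 19 samples were not analysed here. The study describes biological replicates, and mean ± SD covers these 2 samples only. Per the methods, the authors aligned reads to mm10 with Novoalign, placing reads that fit several places at random, removed duplicates with Picard and called ChIP-seq peaks per replicate with USeq. The deposited lists have no header, and their columns were read from the caller's layout and the values as a p score, a q score (minus 10 times the log10 of the adjusted p-value, above 30) and a log2 ratio of ChIP over input set by the authors. The ChIP-nexus lists deposited by the authors are in the format of MACS, named in the processing notes as MACS2 2.1.1, with a fold ratio and −log10 q above 2 for each peak, and their control was not stated. No peak passed the end of a GRCm38 chromosome. The lists hold no read counts, so depth is unknown from them. The read numbers that the study gives per library were compared between the 2 ChIP-seq replicates but entered no value here.

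Start sites were those of 45756 RefSeq curated transcripts, with GENCODE M21 as an alternative. A promoter peak had at least 1 base within 2 kb of a TSS. A gene body peak had its midpoint inside the gene and no base within 2 kb of its TSSs. Peaks were shared when they overlapped by at least 1 base. Python 3.11.15, pandas 2.3.3, numpy 2.4.6, scipy 1.17.1, pysam 0.24.0, matplotlib 3.10.9 and bedtools 2.31.1 were used. The assignment was tested on simulated data with 599 planted promoter peaks, all recovered, and differed from bedtools at 0 genes. Values are descriptions without a test, since 2 replicates of 1 condition allow none. By rule, all 10 genes were named, and of the other pathway genes the 3 with the highest mean percentile and any with no promoter peak in either replicate. The peaks that the rule described singly were the strongest promoter peak of each gene and at most 2 shared gene body peaks per gene. A neighbouring gene was named where a described promoter peak lay nearer to its TSS, but not for every described peak further out. All other single peaks and pathway genes in the text were chosen after their values were seen. The genes and lists were chosen with earlier results of these data known. Comparisons with CpG-rich protein-coding genes and the ChIP-nexus counts with a replicate left out were added after seeing the data.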

Additional observations from a re-analysis of the deposited data

How the results depend on the processing

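The count of 10 genes with a promoter peak in both replicates was also 10 with a promoter window of 1 or 5 kb, with GENCODE transcripts, with the replicate 1 list reduced to the size of the replicate 2 list and with either replicate left out (10 to 10). A q score above 60 gave 4 genes, 4 genes with overlapping promoter peaks in place of 9, 0 genes with a gene body peak in both replicates in place of 4, and a median of 1.75 peaks within 50 kb in place of 7.25 over both replicates. That median was 3.25 with a window of 20 kb. With the overlap rule of 50%, 8 genes had overlapping promoter peaks, the one lost being Notch3. Leaving out a replicate gave 5 to 6 genes with a gene body peak, 48 to 51 of the other pathway genes with a promoter peak (main value 48, and 37 above a q score of 60), medians of 4.5 to 10 peaks within 50 kb and of 29.0 to 50.1 for the percentile, and 0 to 0 ChIP-nexus peaks near the genes. The median percentile was 35.4 over both replicates. With 500 bases either side of the TSS, 8 of 11 windows were CpG-rich in place of 10, with Dll4 gained and Hes1, Notch3 and 1 Dll1 TSS lost. For single genes the q score above 60 left Dll4 with 0 replicates and Notch3, Dll1, Jag2, Hes5 and Hey1 with 1. No paired analysis was possible because the replicates belong to 1 condition and no test was run. Depth is unknown from the lists, so a gene without a peak in one replicate cannot be read as unbound there.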

Other observations

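Gene body peaks were also counted at Spen and Maml3, nuclear regulators of the pathway, which were singled out after their values were seen. Spen, a corepressor of RBPJ, had 11 gene body peaks in replicate 1 and 9 in replicate 2 in 70.7 kb, with 4 shared in each. This was 1.56 and 1.27 peaks per 10 kb, above 97.4% and 99.3% of genes of 40 kb or more, where the median was 0.110 and 0.0362. Maml3, a Mastermind coactivator gene of 417 kb, had 27 and 16 gene body peaks with 6 shared in each, and the strongest had q scores of 232 and 121. Its density, 0.647 and 0.383 per 10 kb, exceeded that of 85.6% and 85.8% of genes of 40 kb or more.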
